A study of Mus musculus with 12 samples.

Results

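Autophagy machinery genes were followed in livers of mice that lack ENT3, the nucleoside transporter encoded by Slc29a3. The set was a list of 40 genes of the canonical pathway, from initiation to fusion with the lysosome. A gene was measured where a feature of the array carried its symbol alone, and the feature of highest mean signal stood for it. That gave 39 of the 40 genes, among 30063 named genes on the array. Optn, which encodes a cargo receptor, had no feature under its own symbol and was not analysed here. The list covers 5 genes of the ULK complex, 6 of the class III phosphatidylinositol 3-kinase complex, 5 for lipid supply and lipid binding, 10 for conjugation, 5 of the LC3 and GABARAP families, 6 cargo receptors and 3 for fusion.

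The livers came from 12 mice of the C57BL6/J strain aged 12 weeks, 6 homozygous for the ENT3 deletion (KO, ENT3 -/-) and 6 wild type (WT, ENT3 +/+). Sex was read from the letter in each title together with the stated matching for gender, which gave 3 KO females, 3 KO males, 3 WT females and 3 WT males. Each snap-frozen liver was extracted with Trizol and hybridised to its own Affymetrix MTA array. The deleted exons, any limit of the deletion to some cells, the litters and the array batches are not stated in the labels.

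Autophagy encloses cytoplasm in a double membrane that fuses with the lysosome. The ULK kinase complex starts the membrane, the class III kinase marks it with a phosphoinositide, and a pair of ubiquitin-like conjugation systems attaches LC3 and GABARAP proteins to it. Receptors such as p62 link cargo to these proteins, and in liver the pathway is known for supplying amino acids in fasting and for clearing damaged mitochondria and lipid.

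Values are the deposited log2 signals, and differences are KO minus WT on that scale with the standard error (SE) of a limma fit to all 12 arrays. A gene was called where the Benjamini-Hochberg adjusted p over 65956 features was under 0.05. The targeted gene was checked against the labels: Slc29a3 lay at 4.10 to 4.19 in KO livers and at 4.82 to 5.29 in WT livers, with a difference of -0.94 ± 0.07 (SE, adjusted p = 0.000324), although none of these signals stood above the negative control features. The 95th percentile of those controls was 6.40 to 6.83 on KO arrays and 6.20 to 6.39 on WT arrays. Xist lay at 10.28 to 12.39 in mice with the letter F and at 4.18 to 4.45 in mice with the letter M. The hepatocyte genes Alb, Apoa1, Ttr, Tf and Cps1 sat at the array's ceiling on all 12 arrays. Of the macrophage markers 8 of 10 were higher in KO livers, with a mean over the list of 9.52 to 13.48 per KO mouse and 7.65 to 8.98 per WT mouse. Of the neutrophil markers 8 of 10 were higher, with 5.18 to 8.56 per KO mouse and 4.20 to 4.78 per WT mouse. All 10 had signals within the negative controls in at least 1 group, and 5 of them in all 4 groups. Of the hepatocyte list 1 of 7 markers was called, Asgr1, which fell by 0.84 in KO livers. The markers at the ceiling could not be called, and Hnf4a, the only other one below it, had -0.46 ± 0.31 (adjusted p = 0.417). Endothelial markers were called both ways, 3 of 6 higher and 2 lower, among them Lyve1 with 2.22 and Clec4g with -1.46. Of the platelet markers 3 of 6 were higher, while 5 of the 6 had signals within the negative controls in at least 1 group and 3 in all 4. KO female 40 stood highest on the macrophage list, at 13.48 against 9.52 to 11.29 in the other KO livers, and without it 12 autophagy genes were lower in place of the 13 described below. In whole liver, fewer cells of a type and less RNA per cell cannot be told apart, and the part of the cell mixture in the results below was not tested. Spiked poly-A transcripts, added to each RNA, also differed, at 5.44 ± 0.36 on KO arrays and 6.30 ± 0.32 on WT arrays (SD, n = 6 each; exact permutation p = 0.005, two-sided, the smallest that 400 arrangements can give).

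Over both sexes 13 of the 39 autophagy genes were lower in KO livers and 0 were higher. The 13 were Atg4a, Stx17, Gabarapl1, Atg4b, Gabarap, Atg10, Ulk2, Atg7, Wipi2, Map1lc3a, Epg5, Sqstm1 and Nbr1. The share called lower was 33.3%, against 11.0% of all 19067 protein-coding genes and 31.2% of the 4821 protein-coding genes with signal above the negative controls in every mouse of at least 1 group. The share was near that of protein-coding genes above the negative controls, but only 29 of the 39 autophagy genes met that condition. Of the 13 called genes, Atg4b, Atg7, Map1lc3a and Epg5 did not meet it. The 33.3% and the 31.2% are therefore taken over unlike sets, and the share was not computed for the 29 genes alone. The condition was easier to meet in WT livers, because the negative control level was lower on WT arrays than on KO arrays. Genes with higher signal in WT livers therefore entered that set more readily, which can raise its share called lower. The same limits hold for every share and median given below for that set, and their size was not tested. The share called higher was 4.77% of all protein-coding genes and 7.07% of those above the negative controls. At an unadjusted p under 0.05, 19 autophagy genes were lower and 3 were higher in the same limma fit. The share of protein-coding genes at that threshold was not counted, here or for the unadjusted counts below. These counts therefore do not decide whether the autophagy genes differ from other genes.

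The median difference over the 39 genes was -0.29, with 28 below 0 and 11 above. Over protein-coding genes above the negative controls the median was -0.21, with 69.3% of them below 0, and over all protein-coding genes it was 0.02. In 4 of the 39 genes (10.3%), Atg4a, Atg4b, Atg10 and Gabarap, all 6 KO mice lay below all 6 WT mice. That pattern was seen in 4.89% of protein-coding genes and in 627 of the 4821 above the negative controls, a share no lower than that of the 39 genes. Of the 13 called genes, 7 had signals within the negative controls in at least 1 group, and Map1lc3a and Epg5 had them there in all 4 groups. The call held with each of the 12 mice left out in turn for 10 of the 13, and it was lost for Epg5 in 7 of these fits, for Sqstm1 in 9 and for Nbr1 in 9. No autophagy gene was called once the poly-A level of each array entered the fit, a level that itself differed between KO and WT arrays, and only 3 features of the whole array were.

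**Figure D1:**
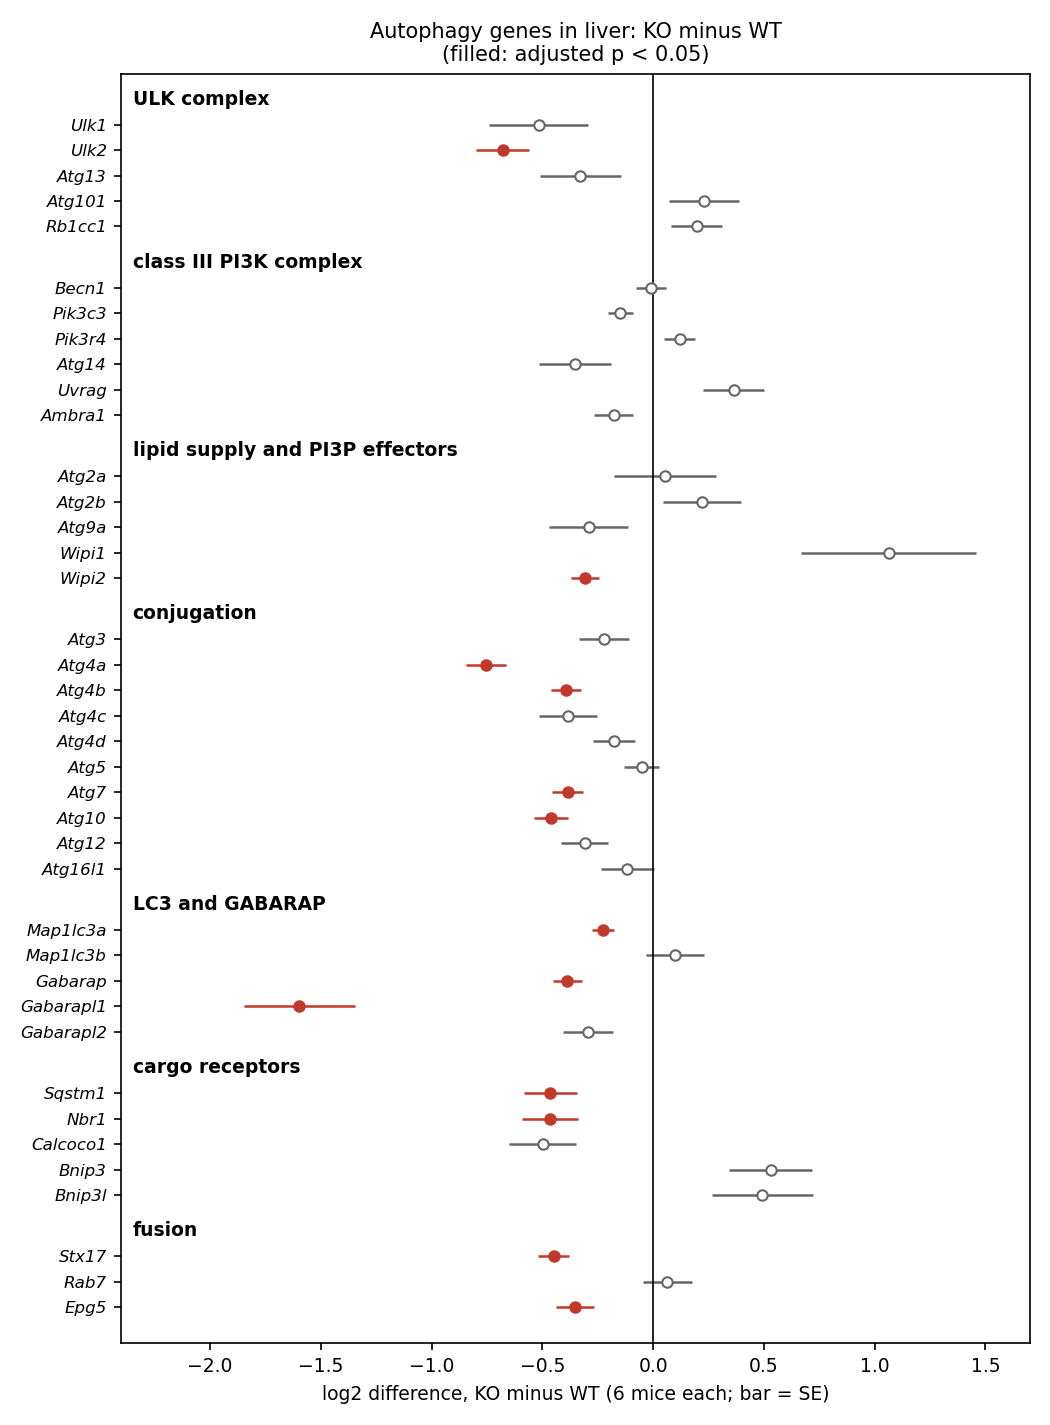
Difference of KO minus WT over both sexes for the 39 measured autophagy genes, on the log2 scale, grouped by role, with bars for the SE of the fit to 6 mice per genotype. Filled points passed the test, and all 13 of them lie left of 0, from -1.60 for Gabarapl1 to -0.23 for Map1lc3a.

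Promoter sequence is shown for 3 of the genes that were lower in KO livers: Gabarapl1, whose difference was the largest of the 13, and Ulk2 and Atg7, the called genes whose windows held one of the motifs searched. Each window runs 5′ to 3′ on the gene's strand over 300 bases around the annotated start, from RefSeq on GRCm38.p6. Capitals mark a motif match and the rest is in lower case. The Gabarapl1 window lies at chr6:129532942-129533241 on the plus strand, the Ulk2 window at chr11:61855043-61855342 on the minus strand and the Atg7 window at chr6:114670846-114671145 on the plus strand.
Gabarapl1: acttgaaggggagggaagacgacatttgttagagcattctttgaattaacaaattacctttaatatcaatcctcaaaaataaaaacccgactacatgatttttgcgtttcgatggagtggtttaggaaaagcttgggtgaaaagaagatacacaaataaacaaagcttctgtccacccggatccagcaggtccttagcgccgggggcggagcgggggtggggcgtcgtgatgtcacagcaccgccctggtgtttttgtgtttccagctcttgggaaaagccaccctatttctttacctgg
Ulk2: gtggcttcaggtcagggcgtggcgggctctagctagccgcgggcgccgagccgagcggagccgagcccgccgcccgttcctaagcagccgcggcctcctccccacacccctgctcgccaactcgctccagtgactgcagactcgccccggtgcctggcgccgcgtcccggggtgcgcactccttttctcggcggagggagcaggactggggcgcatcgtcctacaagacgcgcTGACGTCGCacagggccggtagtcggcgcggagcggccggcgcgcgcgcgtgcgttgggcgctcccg
Atg7: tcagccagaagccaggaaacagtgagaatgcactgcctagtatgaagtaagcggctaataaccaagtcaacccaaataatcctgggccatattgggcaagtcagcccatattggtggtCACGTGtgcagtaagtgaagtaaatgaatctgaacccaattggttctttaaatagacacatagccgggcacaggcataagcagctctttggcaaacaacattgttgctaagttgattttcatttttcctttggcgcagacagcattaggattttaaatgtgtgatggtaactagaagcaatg

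The Ulk2 window is rich in G and C, at 74.7% of its bases, against 46.3% in Gabarapl1 and 42.7% in Atg7. The capitals in Atg7 are CACGTG, the core of the element bound by TFEB and TFE3, and those in Ulk2 match TGACNNNGC, the core of the antioxidant response element. Both strands were searched in 35 windows of 31 autophagy genes. CACGTG was present in 5 of them, those of Atg14, Atg3, Atg5, Atg7 and Bnip3, and in 7.15% of all 32851 mouse windows of this length. TGACNNNGC was present in 4, those of Atg13, Map1lc3b, Rab7 and Ulk2, and in 12.39% of all windows. Each was present in 1 of the 13 windows of called genes. The FOXO element GTAAACA had 0 matches in the 35 windows, against 3.65% of all windows. The full TFEB and TFE3 element, which contains CACGTG, and the direct repeat bound by PPAR and HNF4A also had 0, against 0.33% and 0.04%.

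Initiation was represented by the ULK complex, of which 1 of 5 genes was lower in KO livers. Ulk2, a kinase paralogous to Ulk1, lay at 6.60, 6.96 and 7.65 (lowest, median and highest) in the 6 KO livers and at 7.27, 7.69 and 8.30 in the 6 WT livers. The KO values reached into the WT range, and 4 of 6 KO livers lay below the lowest WT liver. Within each sex, however, no KO mouse reached a WT mouse. The difference was -0.68 ± 0.12 (adjusted p = 0.00698), which is 1.60-fold lower.

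Ulk1, the main initiating kinase, had a difference of -0.52 ± 0.22 that did not pass (adjusted p = 0.195). Its KO values spread from 6.65 in KO female 40 to 8.63 in KO male 19, wider than the WT range of 7.79 to 8.51. The scaffold genes did not pass either, with -0.33 for Atg13, 0.23 for Atg101 and 0.20 for Rb1cc1, which encodes FIP200.

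The class III phosphatidylinositol 3-kinase complex had 0 of 6 genes called in either direction by limma, and 2 of 6 had an unadjusted p under 0.05. Becn1, the Beclin 1 scaffold, had a difference of -0.01 ± 0.07, with 7.23 to 7.56 in KO livers and 7.15 to 7.54 in WT livers, so that the ranges nearly coincided. Pik3c3, the catalytic subunit, had -0.15, and Pik3r4, its regulatory subunit, had 0.12 at signals within the negative controls. Atg14, which directs the complex to the autophagosome, had -0.35, Ambra1, a Beclin 1 partner, had -0.18, and Uvrag, which serves the endosomal form of the complex, had 0.36 ± 0.14 (adjusted p = 0.137). Uvrag also had a second feature of much lower signal, with a difference of -0.04.

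Among the genes that supply lipid and read the phosphoinositide, 1 of 5 was called. Wipi2, the reader that recruits the conjugation machinery, was lower in KO livers, at 7.64, 7.77 and 7.95 (lowest, median and highest) in KO livers and 7.91, 8.11 and 8.24 in WT livers. Only WT female 25 lay within the KO range, and the difference was -0.31 ± 0.06 (adjusted p = 0.0139), or 1.24-fold lower. Its call was lost when KO male 19 and WT female 38 were both left out (adjusted p = 0.0511) and under a trended and robust prior (adjusted p = 0.0546).

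Wipi1, the paralogous reader, pointed the other way without passing. It lay at 7.16, 7.73 and 9.70 (lowest, median and highest) in KO livers and at 6.41, 7.02 and 7.17 in WT livers. All 6 KO livers lay above the WT mean of their own sex, and KO male 19 was the highest. The difference was 1.06 ± 0.39 (adjusted p = 0.132), and without KO male 19 it was 0.68 (adjusted p = 0.09). The lipid transfer genes Atg2a and Atg2b had 0.05 and 0.22, and the scramblase gene Atg9a had -0.29, none of which passed.

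Conjugation genes held 4 of the 13 lower genes, and all 10 of them had a difference below 0. Atg4a, a protease that trims GABARAP proteins and releases them from lipid, had the smallest adjusted p of the 39 genes. It lay at 6.28, 6.64 and 7.14 (lowest, median and highest) in KO livers and at 7.30, 7.44 and 7.65 in WT livers. No KO liver reached a WT liver, and the difference was -0.75 ± 0.09 (adjusted p = 0.00139). In KO females its signal was within the negative controls, so that its level there is near background.

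Atg4b, the protease with the broadest activity on LC3, lay at 5.79 to 6.28 in KO livers and 6.31 to 6.48 in WT livers, without overlap. The difference was -0.39 ± 0.07 (adjusted p = 0.0054). Atg10, the enzyme that passes Atg12 to Atg5, lay at 5.84 to 6.09 in KO livers and 6.21 to 6.63 in WT livers, again without overlap, and its difference was -0.46 ± 0.08 (adjusted p = 0.0058). Both genes had signals within the negative controls in 2 of the 4 groups.

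Atg7, the activating enzyme shared by both conjugation systems, fell by 0.39 ± 0.07 (adjusted p = 0.0085). It lay at 5.60, 5.74 and 5.97 (lowest, median and highest) in KO livers and at 5.73, 6.17 and 6.52 in WT livers, and 3 of 4 groups lay within the negative controls. WT females overlapped with KO livers and WT males did not. The other 6 conjugation genes did not pass: the differences were -0.38 for Atg4c and -0.31 for Atg12 (adjusted p = 0.106 for each), -0.22 for Atg3, -0.18 for Atg4d, -0.12 for Atg16l1 and -0.05 for Atg5. Atg5 and Atg3 were above the negative controls on all 12 arrays, so that low signal did not limit them.

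The ubiquitin-like proteins that become attached to the membrane showed the largest single difference of the set, and 3 of 5 were called lower. Gabarapl1, a GABARAP family member, lay at 9.53, 10.65 and 10.73 in the KO females and at 11.79, 11.80 and 12.05 in the KO males. It lay at 11.83, 12.33 and 12.62 in the WT females and at 12.54, 13.22 and 13.60 in the WT males. Each KO mouse lay below every WT mouse of its sex, and the highest KO male overlapped only with the lowest WT female. The difference was -1.60 ± 0.25 (adjusted p = 0.00379), which is 3.03-fold lower, and every other called gene was less than 1.7-fold lower.

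Gabarap lay in a narrow band of 6.86, 6.95 and 7.04 (lowest, median and highest) in KO livers, against 7.18, 7.33 and 7.56 in WT livers. The groups did not overlap, and the difference was -0.39 ± 0.07 (adjusted p = 0.0056), or 1.31-fold lower. Gabarapl2, the third member of the subfamily, lay at 8.84, 8.98 and 9.51 in KO livers and at 9.10, 9.33 and 9.60 in WT livers. Of its KO livers 5 of 6 lay below every WT liver and KO female 40 did not, and the difference of -0.30 ± 0.11 did not pass (adjusted p = 0.14). Without KO female 40 Gabarapl2 was called.

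Both LC3 genes had signals within the negative controls in all 4 groups. Map1lc3a lay at 4.57, 4.67 and 4.84 in KO livers and at 4.83, 4.92 and 5.03 in WT livers, and passed the test with a difference of -0.23 ± 0.05 (adjusted p = 0.0175). Map1lc3b, the form used most as an autophagosome marker, lay at 5.08, 5.48 and 5.64 in KO livers and at 5.03, 5.39 and 5.56 in WT livers, with a difference of 0.10 ± 0.13 (adjusted p = 0.711). Neither transcript lay above the 95th percentile of the negative controls on any array, and the Map1lc3a call is one between signals within those controls.

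**Figure D2:**
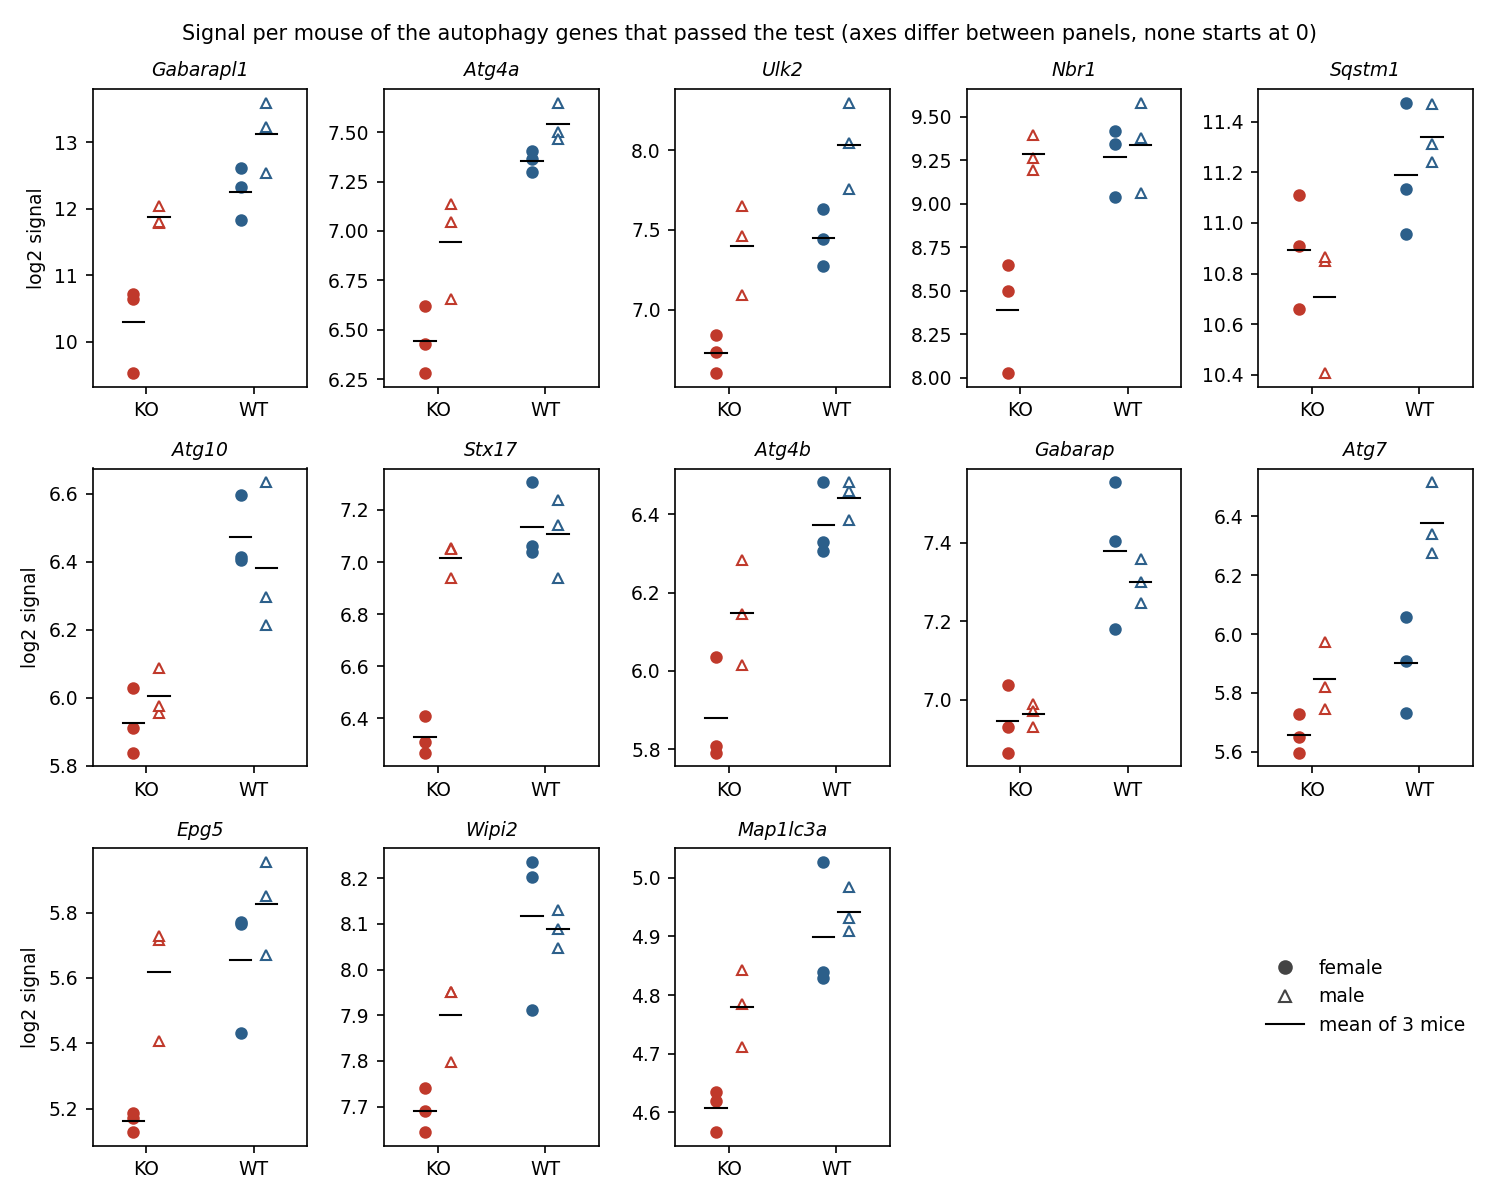
Log2 signal of the 13 called autophagy genes in each mouse, KO left of WT in every panel, with filled circles for females, open triangles for males and a line at the mean of 3 mice. In the panels of Atg4a, Atg4b, Atg10 and Gabarap no KO mouse reaches a WT mouse, and Gabarapl1 has the largest difference between the genotype means.

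Of the cargo receptors 2 of 5 measured genes were called lower. Sqstm1, which encodes p62, the receptor for ubiquitinated cargo, lay at 10.41, 10.86 and 11.11 (lowest, median and highest) in KO livers and at 10.96, 11.28 and 11.48 in WT livers. Of the KO livers 5 of 6 lay below every WT liver, and the difference was -0.46 ± 0.12 (adjusted p = 0.0386), or 1.38-fold lower. Nbr1, a receptor related to p62, lay at 8.03, 8.49 and 8.65 in KO females and at 9.19, 9.26 and 9.39 in KO males. It lay at 9.04, 9.34 and 9.42 in WT females and at 9.06, 9.38 and 9.58 in WT males, so that only the KO females stood apart. Its difference over both sexes was -0.47 ± 0.13 (adjusted p = 0.046). Calcoco1, a receptor for autophagy of the endoplasmic reticulum and Golgi, had -0.50 ± 0.15 and did not pass (adjusted p = 0.0678).

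The mitophagy receptors had differences of the other sign and did not pass. Bnip3, which responds to hypoxia, lay at 11.63, 12.45 and 12.95 in KO livers and at 11.72, 11.79 and 12.27 in WT livers. The difference was 0.53 ± 0.19 (adjusted p = 0.115), and KO female 40 was the lowest of all 12 livers. It was called higher when features within the negative controls were left out before adjustment, and when KO female 40 was left out. Bnip3l, also named Nix, had 0.49 ± 0.23 (adjusted p = 0.231), with all KO livers but KO male 39 above the WT mean of their sex.

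Fusion with the lysosome was represented by 3 genes, of which 2 were lower. Stx17, the syntaxin of the closed autophagosome, lay at 6.27, 6.31 and 6.41 in KO females and at 6.94, 7.05 and 7.05 in KO males. It lay at 7.04, 7.06 and 7.31 in WT females and at 6.94, 7.14 and 7.24 in WT males. KO females lay far below all other mice, at signals within the negative controls, and KO males overlapped with WT males. The difference over both sexes was -0.45 ± 0.07 (adjusted p = 0.00361).

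Epg5, a tether for the fusion step, fell by 0.35 ± 0.09 (adjusted p = 0.0286) at signals within the negative controls in all 4 groups. Its values were 5.13, 5.30 and 5.73 (lowest, median and highest) in KO livers and 5.43, 5.77 and 5.96 in WT livers, with overlap. Rab7, the late endosomal GTPase that also serves the pathway, had 0.06 ± 0.11 (adjusted p = 0.789), with 14.53 to 15.25 in KO livers and 14.50 to 14.75 in WT livers.

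The same contrast was fitted within each sex. In females 11 of the 39 genes were lower in KO livers (28.2%) and 0 were higher. Called lower were 7.69% of protein-coding genes and 23.6% of those above the negative controls, and called higher were 3.73% and 6.43%. The 11 were all among the 13 called over both sexes, and Atg7 and Sqstm1 were the ones not called in females. At an unadjusted p under 0.05, 18 genes were lower and 1 was higher in females. The female count rested on few mice: it was 2 without WT female 38, 4 without KO female 69 and 5 without KO female 13.

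In males 1 gene was lower in KO livers, Atg7 (2.56%), and 0 were higher. Called lower were 1.34% of protein-coding genes and 4.58% of those above the negative controls, and called higher were 0.11% and 0.249%. Its difference was -0.53 ± 0.10 in males (adjusted p = 0.041) and -0.24 ± 0.10 in females (adjusted p = 0.21), and the male call was lost in 10 of the 12 fits that left out a mouse. At an unadjusted p under 0.05, 11 genes were lower and 1 was higher in males. All 13 genes called over both sexes had a difference below 0 in males too, and in 11 of the 13 the female difference was further from 0. The call over both sexes averages the female and male differences, so the male sign is no separate support. The female minus male difference was below 0 in 66.7% of the 39 genes. It was below 0 in 59.6% of protein-coding genes above the negative controls.

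A test of the female minus the male difference called 0 of the 39 genes with limma, and 0.0% of protein-coding genes. An unadjusted p under 0.05 was reached by 4, each with the more negative difference in females. Stx17 had -0.81 ± 0.10 in females and -0.09 ± 0.10 in males (adjusted p of the difference 0.279). Atg14 had -0.88 and 0.18 (adjusted p = 0.529), Nbr1 -0.88 and -0.06, and Atg16l1 -0.50 and 0.27 (adjusted p = 0.534 for both), in females and males in that order. Atg14 lay at 5.94, 6.13 and 6.23 in KO females and 6.80, 6.91 and 7.24 in WT females, and at 7.01, 7.57 and 7.86 in KO males and 6.96, 7.29 and 7.67 in WT males. The female values did not overlap between genotypes and the male values did.

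**Figure D3:**
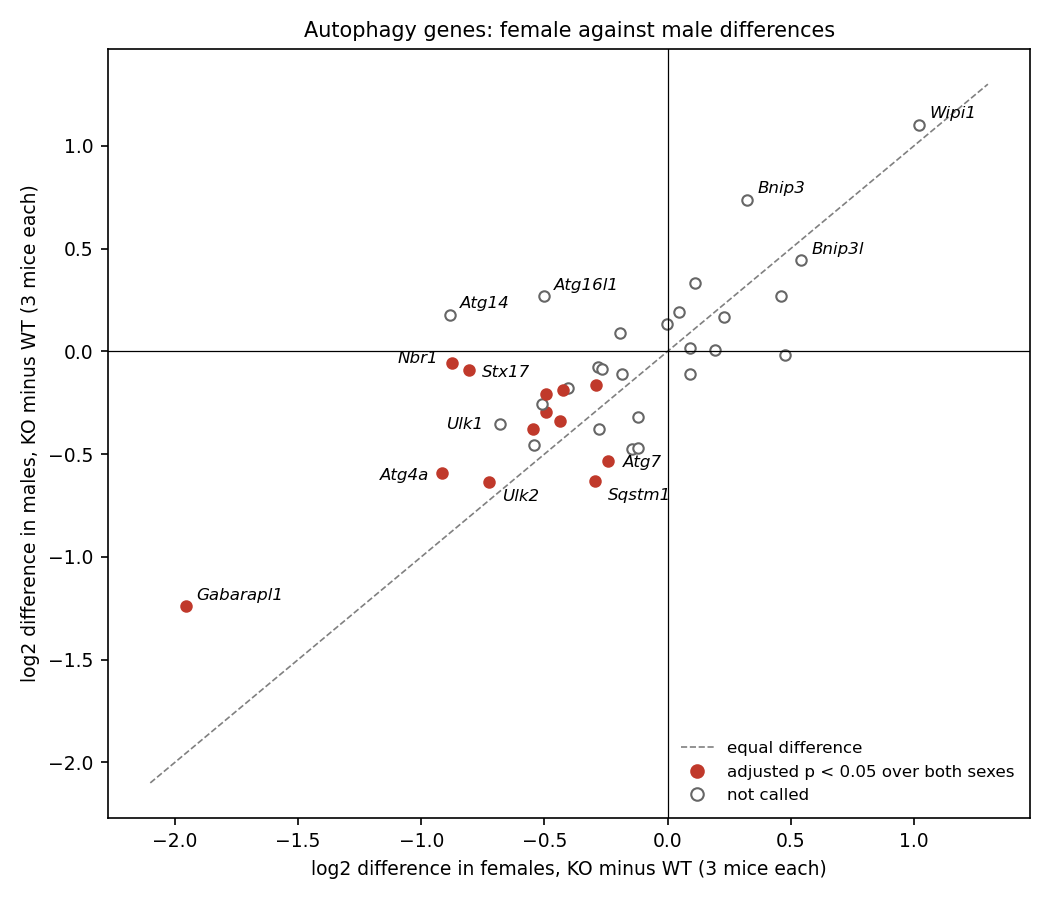
Difference of KO minus WT on the log2 scale in females (horizontal axis) and in males (vertical axis) for the 39 autophagy genes, 3 mice per genotype and sex, with a dashed line where both are equal. Filled points passed the test over both sexes, and Stx17, Nbr1, Atg14 and Atg16l1 lie left of the line with male values near or above 0.

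Single KO livers were also set against the mean of the 3 WT livers of their sex. In KO females 13, 40 and 69, 27, 30 and 29 of the 39 genes lay below that mean, with median deviations of -0.25, -0.38 and -0.28. In KO males 18, 19 and 39, 28, 20 and 35 genes lay below it, with medians of -0.10, -0.06 and -0.22. KO male 19 was thus the most evenly split liver. In it Wipi1 lay 2.63 above the WT male mean and Gabarapl1 lay at -1.33 from it. Of the 13 called genes, 12 lay below the WT mean of the sex in all 6 KO livers, the exception being Nbr1 in KO male 18. The 13 were picked by these same values, so this count is no separate support for them.

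**Figure D4:**
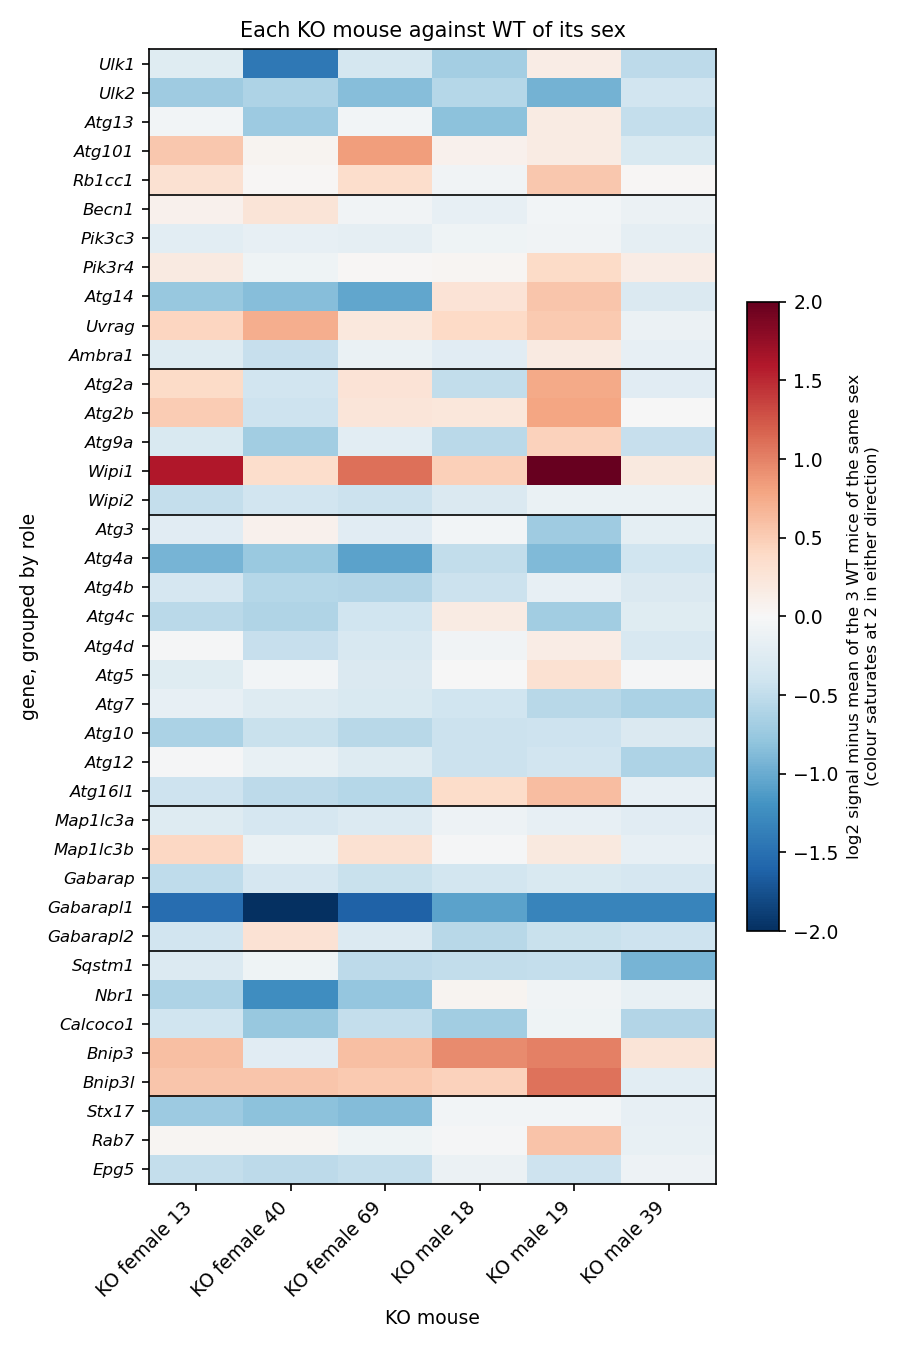
Log2 signal of each KO liver minus the mean of the 3 WT livers of the same sex, for the 39 autophagy genes grouped by role. Gabarapl1 is blue in all 6 columns, Wipi1 is red in all 6, and Nbr1, Stx17 and Atg14 are blue mainly in the 3 female columns.

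Autophagy genes outside the set were read from a further list of 65 regulators, core factors, receptors and fusion genes, of which 60 were measured. Of these 60 genes 15 were lower in KO livers and 5 were higher (18 and 3 after median centring of the arrays), and the median difference was -0.04. Called lower were 11.0% of protein-coding genes and 31.2% of those above the negative controls, and called higher were 4.77% and 7.07%. The share of the 60 genes called lower lay between the first pair, and the share called higher was slightly above the second pair. Whether the 60 genes, or the lists below, differ from other genes was not tested. The 39 genes had 0 higher calls and these 60 had 5, and whether the lists differ in this was not tested. Of the 60 genes, 18 had signals within the negative controls in all 4 groups.

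Among 19 upstream regulators 5 were lower and 1 was higher. Ddit4, an inhibitor of mTORC1 that is induced by stress and glucocorticoids, lay at 7.66, 8.91 and 12.53 (lowest, median and highest) in KO livers and at 5.45, 5.87 and 6.41 in WT livers. No KO liver reached a WT liver, KO male 19 was the highest, and the difference was 3.38 ± 0.71 (adjusted p = 0.015). On 5 of the 6 WT arrays the Ddit4 signal was within the negative controls, so that this difference is measured against a level near background. The lower regulators were Tsc2 with -0.58 ± 0.11, Rptor with -0.35 ± 0.07 and Zkscan3 with -0.26 ± 0.05. Zkscan3 signals were within the negative controls in all 4 groups and Rptor signals in 2, so these differences are between signals near background. Tsc2 encodes a brake on mTORC1, Rptor the mTORC1 subunit raptor, and Zkscan3 a repressor of autophagy genes. Deptor with -1.06 and Tsc1 with -0.28, the second within the negative controls in all 4 groups, were also lower and are named after their values were seen. Tfeb and Tfe3, which activate autophagy and lysosomal genes, had -0.03 and 0.05 at signals within the negative controls and did not pass.

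Among 14 further core factors 3 were lower and 3 were higher. Sh3glb1, a membrane-bending partner of Beclin 1 through Uvrag, lay at 9.45, 10.09 and 10.65 in KO livers and at 8.96, 9.18 and 9.35 in WT livers, without overlap. Its difference was 0.93 ± 0.11 (adjusted p = 0.00148). Trp53inp2, a nuclear protein that binds LC3 and GABARAP proteins, fell by 1.01 ± 0.18, Wdr45, a phosphoinositide reader, fell by 0.44 ± 0.10, and Tmem41b, a lipid scramblase, fell by 0.42 ± 0.08. Trp53inp2 signals were within the negative controls in 2 groups, and those of Wdr45 and Tmem41b in 1. Atg16l2 with 0.31 and Rab33b with 0.38, both within the negative controls in all 4 groups, were also higher and are named after their values were seen.

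Among 13 further receptors 4 were lower and 1 was higher. Tex264, a receptor for the endoplasmic reticulum, fell by 0.58 ± 0.09 with no overlap between the genotypes (6.48 to 6.76 in KO livers and 6.90 to 7.54 in WT livers). Fkbp8, a mitochondrial receptor, fell by 0.54 ± 0.11 and Stbd1, a glycogen receptor, fell by 0.78 ± 0.19. Each of these 3 genes was within the negative controls in 1 group. Wdfy3, a scaffold for protein aggregates, was higher by 0.82 ± 0.12, at 7.61 to 8.33 in KO livers and 6.92 to 7.27 in WT livers, without overlap. Phb2 with -0.24 was also lower and is named after its values were seen.

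Of 14 further fusion genes 3 were lower and 0 were higher. Snap29, the partner of Stx17 in the fusion complex, fell by 0.47 ± 0.08 (adjusted p = 0.00521), and no KO liver reached a WT liver. Of the HOPS tether subunits, Vps33a and Vps41 were lower, with differences of -0.70 ± 0.09 and -0.36 ± 0.09. The other subunits on the list, Vps11, Vps16, Vps18 and Vps39, were not called. Lamp1, a lysosomal membrane protein, had 0.31 ± 0.09 and did not pass (adjusted p = 0.0519).

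**Figure D5:**
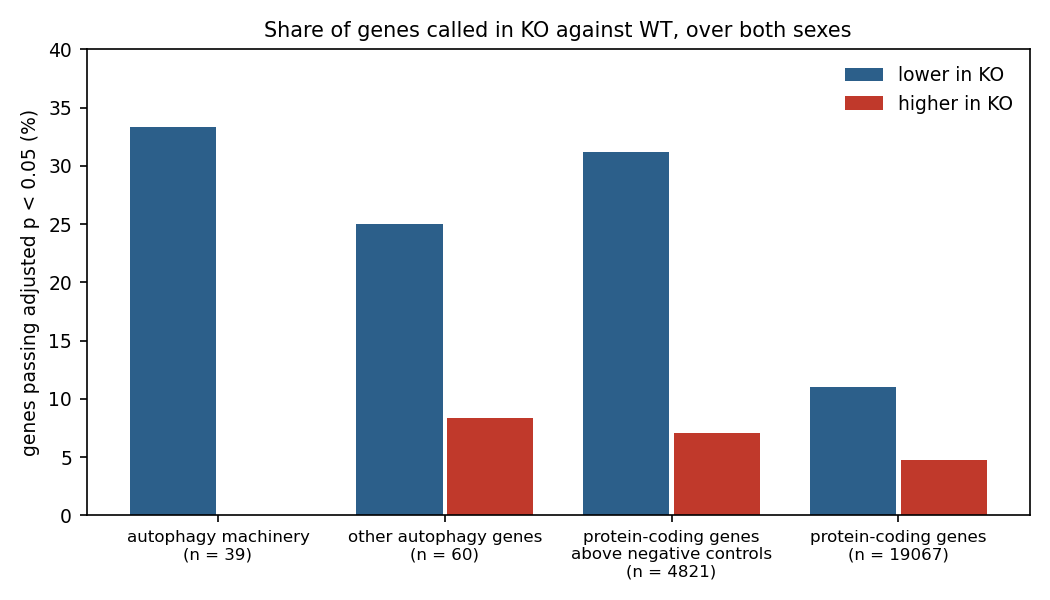
Share of genes called lower (blue) and higher (red) in KO livers over both sexes, in percent, for the 39 autophagy machinery genes, the 60 other autophagy genes, protein-coding genes above the negative controls and all protein-coding genes. The machinery genes have 33.3% lower and no red bar, next to 31.2% and 7.07% for protein-coding genes above the negative controls. Only 29 of the 39 machinery genes met the condition of that set.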

How the data were processed

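Total RNA from 12 livers was measured on 1 array each, and each of the 4 groups of genotype and sex held 3 mice. The authors deposited log2 signals, and the submitters' processing notes name Transcriptome Analysis Console. Background correction, normalization and genome build: not given in the sources used here. Their common ceiling of 19.93 lies above what a 16-bit scanner can give, so differences are those of the deposited scale. Of 72688 features the 6732 controls were left out, and 65956 were tested. Symbols came from the platform annotation, updated through RefSeq.

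A model of 4 group means was fitted by lmFit and eBayes of limma 3.58.1 (R 4.3.3, 8 residual degrees of freedom), with Benjamini-Hochberg adjustment over the 65956 features and a threshold of 0.05. Dim features stayed in the test. A group counted as within the negative controls where all 3 mice lay at or below the 95th percentile of 5222 negative control features on their own array. P-values set each difference against the spread between mice within the groups, moderated over all features by eBayes. The number of arrays limits the precision. On simulated data for KO against WT over 65956 features, 26%, 88%, 94% and 100% of 50 features changed by 0.5, 1, 2 and 4 on the log2 scale were recovered, with 6 false calls. The simulated noise was independent between features, without a shift shared by an array, and few features were changed. In the data 6432 features were called, so neither the recovery nor the number of false calls carries over to them.

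The genes, lists and rules were chosen with earlier results of these data known. Values per mouse are given for the 12 genes of smallest adjusted p, the LC3 and GABARAP genes, Sqstm1 and the 3 of smallest p for female minus male, and for other genes where noted. Of the other autophagy genes up to 4 per list with the smallest p are named. Values of Ulk1, Becn1, Wipi1, Bnip3 and Rab7 were added after they were seen. Promoter windows came from RefSeq on GRCm38.p6. Alternatives changed the normalization, the filter, the model, the adjustment and the mice. No sample columns were left unused.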

Additional observations from a re-analysis of the deposited data

Results flagged for a closer look

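In each genotype the 6 mice were searched for a liver whose distance from the nearest other liver was large for the range of the group (Dixon's criterion). This was done for 78 groups of 6, and 5 values from 4 livers stood apart, where chance gives about 5%, or 1 in 20 groups. That rate is for a group of like mice, and it need not hold here because each group pooled females and males. Some genes differed between the sexes within a genotype, such as Stx17 in KO mice. Rab7 was 15.25 in KO male 19, against 14.53 to 14.66 in the other KO livers. Gabarapl2 was 9.51 in KO female 40, against 8.84 to 9.03 in the other KO livers, and it was called lower in KO livers once that mouse was left out. WT female 25 was low for Calcoco1, at 6.66 against 7.26 to 7.47 in the other WT livers, and for Atg13, at 7.82 against 8.23 to 8.46. Calcoco1 was called lower in KO livers without WT female 25. Atg5 was 8.82 in WT female 38, against 8.50 to 8.60 in the other WT livers.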

How the results depend on the processing

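Over both sexes 13 autophagy genes were called lower, with 12 after quantile normalization and 15 after median centring, so neither scaling turned the direction. It was 10 under a trended and robust prior, where Wipi2, Sqstm1 and Nbr1 were lost. The count was 8 without the term for sex, 3 where 1.5-fold was also required and 0 with the poly-A level as a covariate. With that covariate the median over the genes was 0.11 in place of -0.29, Sqstm1 turned to 0.019 (adjusted p = 0.996), and the counts in females, in males and of the other autophagy genes were 0 as well. The 1 higher call, made with dim features left out, was Bnip3. In females 11 genes were lower, with 7 under a trended and robust prior, 5 at 1.5-fold and 2 without KO male 19 and WT female 38. In males the 1 call became 2 under quantile normalization, median centring, array weights or adjustment over protein-coding genes, 5 with dim features left out, and 0 under the trended prior, at 1.5-fold or without those 2 mice. Of the other autophagy genes 15 were lower, with 8 without the term for sex and 4 at 1.5-fold, and 5 were higher, with 3 under median centring, at 1.5-fold or without those 2 mice. The cause was not tested.

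Leaving out 1 mouse at a time gave 10 to 14 lower and 0 to 1 higher over both sexes, 2 to 13 lower in females, 0 to 1 lower in males, 0 for female minus male, and 10 to 16 lower and 3 to 5 higher among the other genes. The single higher call was Bnip3 without KO female 40 or Uvrag without KO male 39. Epg5 kept its call only without WT male 17, WT female 27 or any 1 KO male (adjusted p up to 0.0735). Sqstm1 kept it only without WT female 25, KO male 19 or KO female 40 (up to 0.0912), and Nbr1 only without WT male 23, WT female 27 or KO female 13 (up to 0.11). The male call of Atg7 held only without WT female 25 or WT female 38. No paired analysis was possible because no animal number occurs in more than 1 group. Signals of 17 of the 39 genes lay within the negative controls in at least 1 group, which limits their folds.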
